A study of Mus musculus with 6 samples.

Results

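ZBTB proteins are transcription factors that join an amino-terminal BTB domain, through which they pair with each other and recruit corepressor complexes, to a carboxy-terminal array of C2H2 zinc fingers that reads DNA. Many are known as repressors that set cell fate, above all in lymphocytes and other blood cells, and some read methylated DNA or bind telomeric repeats. The study addressed ZBTB21, a member of this family, as a partner of cohesin, the ring complex that folds chromatin into loops. The Zbtb genes were taken here as all protein-coding RefSeq genes on GRCm38 whose symbol is Zbtb followed by digits, Zbtb21 itself included. The rule uses the symbol and no measured value. It took in 41 genes, out of 21000 protein-coding genes with a curated transcript and 21774 protein-coding genes in all. The symbol Zbtb8os names a gene on the opposite strand next to Zbtb8a that encodes no zinc finger protein. It was kept because the rule takes it in, and had no peak at its start.

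Chromatin accessibility was measured by ATAC-seq, in which the transposase Tn5 cuts and tags open DNA. The cells, untreated V6.5 mESCs, are an established line of embryonic stem cells from the mouse and were grown on irradiated mouse embryonic fibroblasts with LIF, in 2 replicates. The labels give these cells no engineered allele, although the treatment text shared by all 6 samples speaks of doxycycline-treated degron cells. The other 4 samples, ZBTB21-degron mESCs at 0 h and 6 h of IAA, the auxin that triggers degradation, were not analysed here.

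The untreated condition is represented by 1 deposited list of 41014 peaks in mm10, each with a score between 540 and 953 and a median of 696. How the score was made is not given in the sources used here. Its lower limit equals a scaled cutoff of the IDR software, so it may measure how well a peak was reproduced between the replicates and not how strong it was, and it is used here only to order peaks. Because no replicate has values of its own in the list, neither replicate error nor sequencing depth is known, and no comparison has a replicate test. Shares of genes are given with Wilson 95% intervals, which cover counting error over the genes only. A gene without a listed peak is not thereby shown to be closed, since the list starts at a score of 540. As a check of the label, 5 of 10 mESC markers had a peak within 1 kb of a transcription start site (TSS), among them Pou5f1 with a best score of 861 and Nanog with 805. The mESC markers Sox2, Klf4, Esrrb and Tdgf1 had none within 5 kb. Of the fibroblast markers, which could come from the feeder cells, 2 of 10 had a peak within 1 kb (Thy1 and Pdgfra), and of the lymphocyte markers 0 of 5. The intervals, 23.7 to 76.3% for the mESC markers, 5.67 to 51% for the fibroblast markers and 0 to 43.4% for the lymphocyte markers, all hold the 28.5% of all protein-coding genes, so these short lists do not separate the cell types.

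The share of the family with a listed peak at the gene start was close to that of all genes. An ATAC-seq peak lay within 1 kb of a curated TSS in 12 of 41 Zbtb genes (29.3%, interval 17.6 to 44.5%), against 28.5% of all protein-coding genes. Within 5 kb the count was 20 of 41 (48.8%, interval 34.3 to 63.5%), against 39.2%. A peak lay directly over a TSS in 8 of 41 (19.5%, interval 10.2 to 34.0%), against 25.1%. All 3 intervals hold the share of all genes. Counted by TSS, 14 of the 59 curated TSSs of the family had a peak within 1 kb (23.7%), against 26.8% of 26032 TSSs.

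Other gene families covered the same range. The shares within 1 kb were 24.3% of 37 Klhl genes, which encode BTB proteins with kelch repeats, and 36.4% of 22 Kctd genes, which encode BTB-like proteins without zinc fingers. They were 11.8% of 17 Klf genes, which encode zinc finger proteins without a BTB domain, and 29.5% of 44 forkhead genes. Every interval of these families overlapped that of the Zbtb genes.

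**Figure D1:**
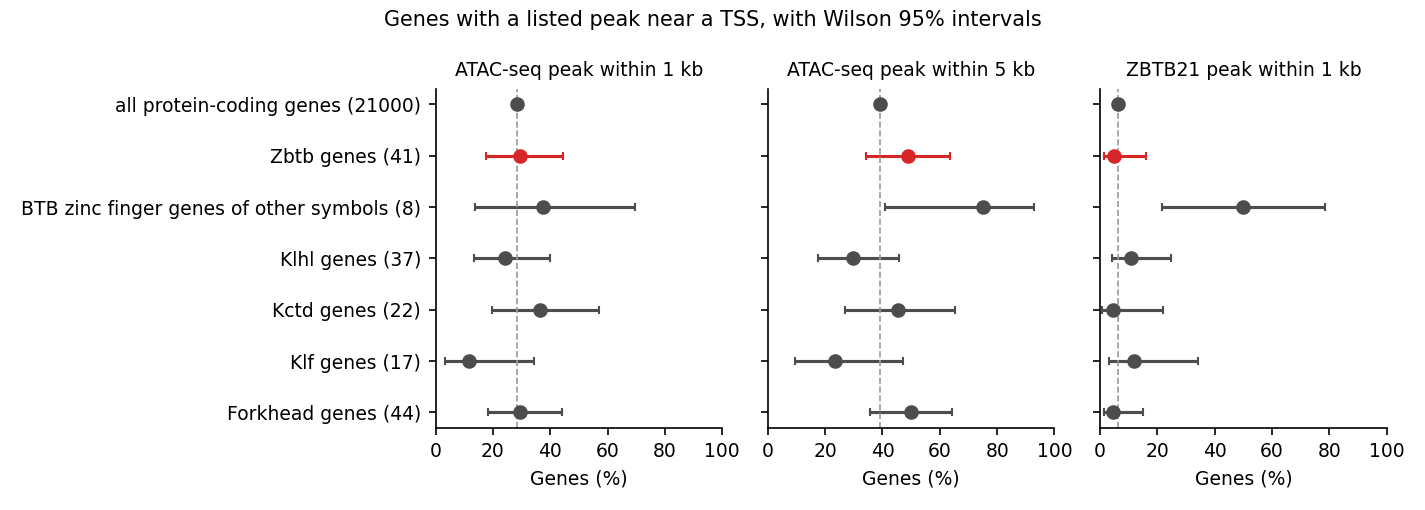
Percentage of genes with an ATAC-seq peak within 1 kb or 5 kb of a TSS, or a ZBTB21 ChIP-seq peak within 1 kb, for all protein-coding genes and 6 gene families (number of genes in brackets). Points are shares, bars are Wilson 95% intervals and dashed lines mark all protein-coding genes. The Zbtb genes, in red, sat at 29.3%, 48.8% and 4.88%, with each bar crossing the dashed line.

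The promoters of 4 members carry the main contrasts and are shown first. Zbtb5 and Zbtb8b had the highest-scored peaks of the family, directly over the TSS. Zbtb11 and Zbtb21 were the members whose TSS lay under a ZBTB21 ChIP-seq peak, with no listed ATAC-seq peak within 5 kb of the curated TSS. Each sequence is the RefSeq GRCm38.p6 stretch of 250 bases that ends just before the TSS, read in the direction of the gene. Capitals mark GC boxes (the letters GGGCGG), boxes with the letters CCAAT, and the cAMP response element, which reads TGACGTCA, on either strand.
Zbtb5 (chr4:45012413-45012662, minus strand): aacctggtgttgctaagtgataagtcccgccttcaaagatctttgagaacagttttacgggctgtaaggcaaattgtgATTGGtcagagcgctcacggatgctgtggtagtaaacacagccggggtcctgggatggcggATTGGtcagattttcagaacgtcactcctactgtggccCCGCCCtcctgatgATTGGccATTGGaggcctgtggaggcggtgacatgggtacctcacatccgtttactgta
Zbtb8b (chr4:129440819-129441068, minus strand): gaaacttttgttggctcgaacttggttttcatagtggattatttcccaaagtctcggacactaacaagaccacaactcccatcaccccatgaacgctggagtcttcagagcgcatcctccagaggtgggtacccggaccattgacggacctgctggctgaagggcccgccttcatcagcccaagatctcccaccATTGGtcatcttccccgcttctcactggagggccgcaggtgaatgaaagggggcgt
Zbtb11 (chr16:55973554-55973803, plus strand): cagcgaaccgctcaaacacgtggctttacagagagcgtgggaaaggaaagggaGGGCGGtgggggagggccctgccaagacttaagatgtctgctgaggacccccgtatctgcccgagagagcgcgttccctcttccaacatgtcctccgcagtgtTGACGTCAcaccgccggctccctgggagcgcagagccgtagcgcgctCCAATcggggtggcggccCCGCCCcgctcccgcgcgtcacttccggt
Zbtb21 (chr16:97962623-97962872, minus strand): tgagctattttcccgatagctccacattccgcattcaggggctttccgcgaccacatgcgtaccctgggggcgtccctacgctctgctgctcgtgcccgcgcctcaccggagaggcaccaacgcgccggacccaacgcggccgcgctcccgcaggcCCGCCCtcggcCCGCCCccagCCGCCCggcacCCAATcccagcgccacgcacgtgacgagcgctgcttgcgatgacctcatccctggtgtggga

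The Zbtb5 window held 4 CCAAT boxes, which start 172, 111, 59 and 52 bases before the TSS, and 1 GC box at 73 bases. The Zbtb8b window held 1 CCAAT box, 56 bases before the TSS. In the Zbtb21 window, 3 GC boxes start 94, 83 and 73 bases before the TSS, next to a CCAAT box at 62 bases. The Zbtb11 window held GC boxes at 197 and 29 bases, a CCAAT box at 47 bases and the cAMP response element at 94 bases. These are matches of letters and not measured sites.

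The highest scores were those of Zbtb5 and Zbtb8b. The peak of Zbtb5 (chr4:45011886-45012936) covered the TSS with a width of 1051 bp and a score of 926. The peak of Zbtb8b (chr4:129440553-129441127) covered the TSS with 575 bp and a score of 900. Scores of 900 or more were held by 612 of the 41014 peaks. Zbtb5 had a further peak of score 760 in its coding exon, 16944 bp downstream of the TSS.

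The other peaks over a TSS belonged to Zbtb48, Zbtb2, Zbtb37, Zbtb40, Zbtb6 and Zbtb45. Zbtb48, which encodes the telomere-binding protein TZAP, had a peak of score 826 and 860 bp (chr4:152027207-152028066). Zbtb2 had a peak of score 796 and 1099 bp that reached from the TSS into the gene. Zbtb37 followed with 737 and 1120 bp, and Zbtb40, a further gene tied to telomeres, with 692 and 934 bp. Zbtb6 had a score of 633 and 1059 bp. The peak over the TSS of Zbtb45 had the lowest score of the 8, 543, although it was 1109 bp wide, and a narrower peak of 425 bp and score 682 lay 689 bp upstream.

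Peaks over Zbtb TSSs were wide. Their median width was 1055 bp (575 to 1120 bp), against 788 bp for peaks over any protein-coding TSS and 547 bp for the whole list. Their median score, 766.5, was close to the 757 of peaks over any protein-coding TSS. The 7 peaks within 1 kb of a Zbtb TSS but over none had a median width of 592 bp. With 8 and 7 peaks these medians are descriptions.

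In 4 members the nearest peak lay beside the TSS. Zbtb7a, which encodes the repressor LRF of the fetal globin genes, had its peak in an intron, 710 bp downstream of the TSS, with a score of 860 and 983 bp (chr10:81136981-81137963). Zbtb46, a marker of classical dendritic cells, had a peak of score 843 whose edge was 633 bp upstream of a TSS (chr2:181460059-181460849). Zbtb8a had a peak of score 711 at 873 bp upstream and 4 more within 5 kb, of which the highest scored 866. Zbtb7c had 3 peaks within 1 kb of its TSSs, with scores of 732, 577 and 571. Zbtb7c also had 14 peaks inside its 328 kb gene, or 4.26 per 100 kb. The 556 protein-coding genes of 300 kb or more together had 0.948 per 100 kb. Those genes had a median length of 451 kb, and single ones held up to 40 peaks. The rate was 2.31 per 100 kb over all protein-coding genes and 2.7 over all Zbtb genes. Zbtb20, the longest member at 759 kb, had 6 peaks, or 0.791 per 100 kb.

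The best scores of the 12 genes had a median of 766.5 (633 to 926), against 754 over the 5979 protein-coding genes with a peak within 1 kb. The SD among the 12 genes was 93.6, which is the spread of single genes, and the difference between the medians was not tested.

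**Figure D2:**
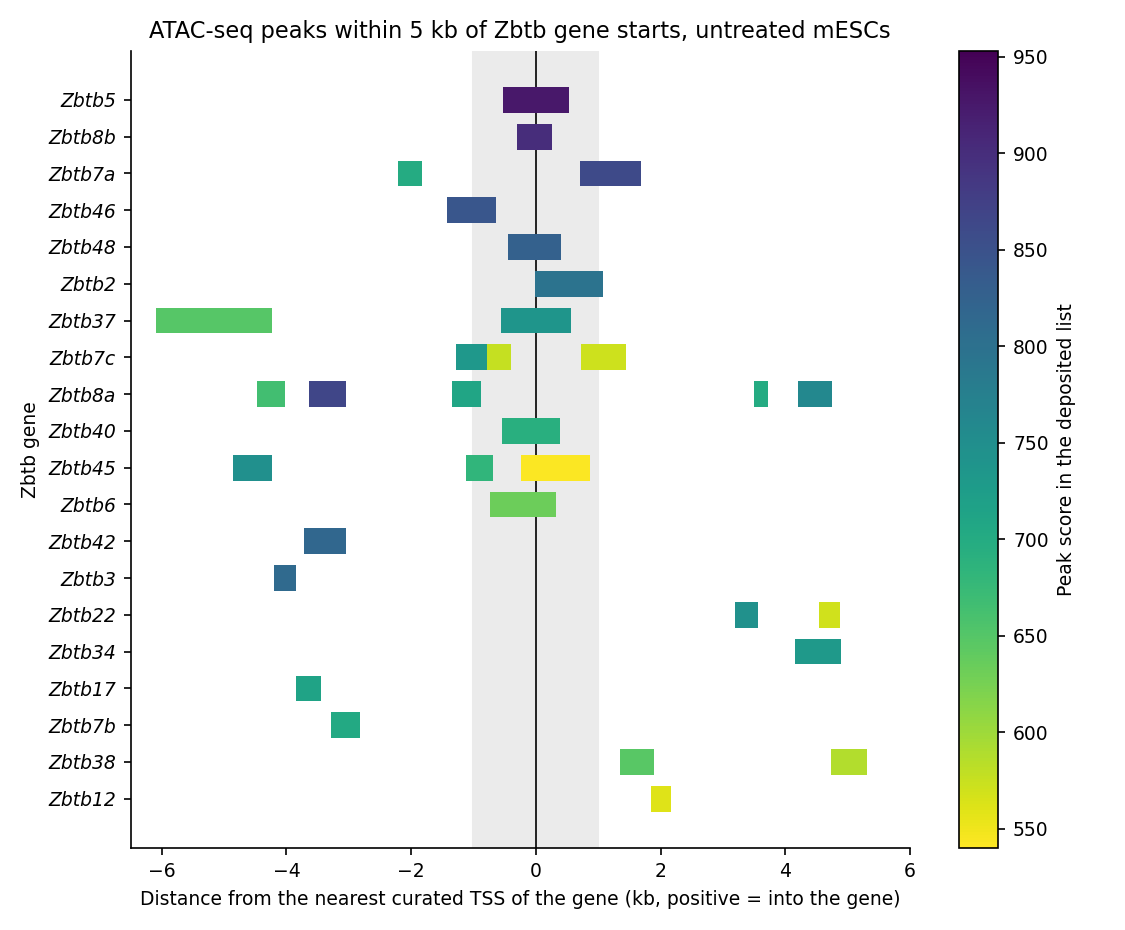
ATAC-seq peaks within 5 kb of the 20 Zbtb genes that had any, drawn to scale by distance from the nearest curated TSS (kb, positive into the gene) and coloured by score. The shaded band marks 1 kb on either side. The upper 12 genes have a peak that reaches the band, led by Zbtb5 at 926 and Zbtb8b at 900, and the lower 8 have peaks only beyond it.

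**Figure D3:**
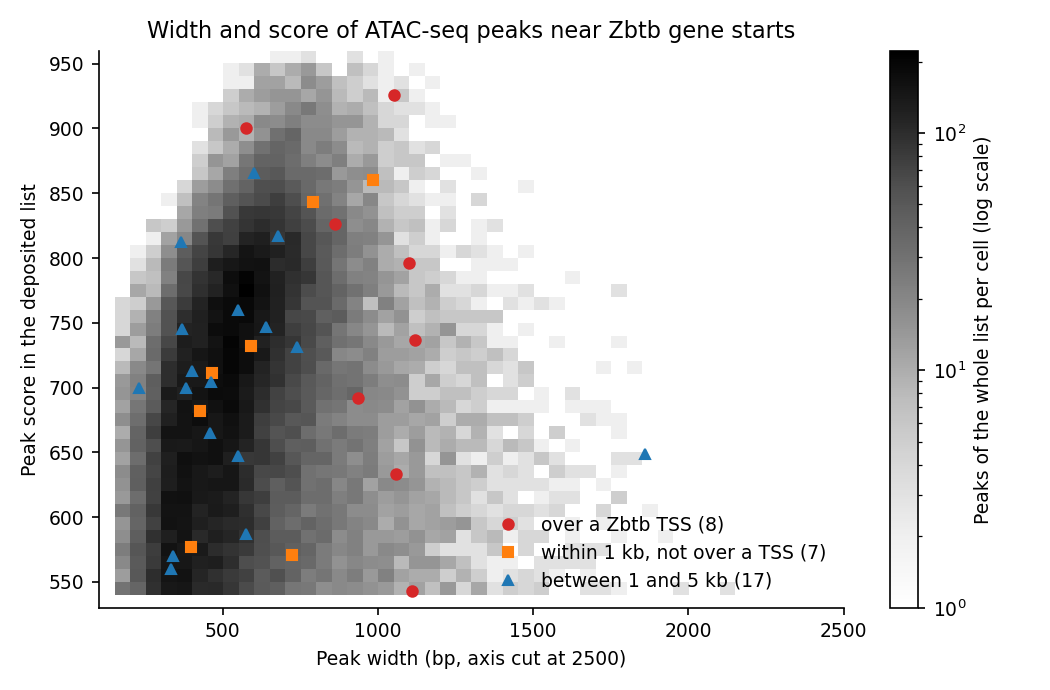
Width (bp) and score of the 32 peaks within 5 kb of a Zbtb TSS, over the density of the whole list in grey (log scale). Peaks over a TSS, in red, are wide for their score, with 6 of the 8 between 934 and 1120 bp wide, while peaks between 1 and 5 kb, in blue, mostly follow the bulk of the list.

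In 8 further members the first peak lay between 1 and 5 kb. These were Zbtb38 (nearest edge 1.35 kb from a TSS, best score 647), Zbtb12 (1.84 kb, 560), Zbtb7b (2.82 kb, 704), Zbtb42 (3.04 kb, 817), Zbtb22 (3.19 kb, 745), Zbtb17 (3.45 kb, 713), Zbtb3 (3.84 kb, 812) and Zbtb34 (4.16 kb, 731). Zbtb7b encodes ThPOK, which commits T cells to the CD4 lineage, and its peak was upstream, between genes (chr3:89396195-89396657). Zbtb17 encodes MIZ-1, a partner of MYC. Some of these peaks lay in other genes. The peak of Zbtb3 was in a UTR exon of Polr2g, and those of Zbtb22 were in Tapbp.

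The other 21 members had no listed peak within 5 kb. Their nearest peaks were between 5.02 and 9.54 kb away in Zbtb39, Zbtb32, Zbtb10, Zbtb4, Zbtb11, Zbtb43, Zbtb9 and Zbtb33. They were between 11.5 and 23.9 kb away in Zbtb26, Zbtb44, Zbtb24, Zbtb8os, Zbtb49, Zbtb14 and Zbtb16. The farthest were those of Zbtb41 (32 kb), Zbtb21 (33.9 kb), Zbtb25 (44.2 kb), Zbtb1 (45.3 kb), Zbtb18 (59.1 kb) and Zbtb20 (125 kb). Zbtb39, at 5.02 kb, stood just outside the limit, and Zbtb34, at 4.16 kb, just inside it.

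The median distance from a Zbtb gene to its nearest peak was 5.02 kb (25th to 75th percentile 0.71 to 14.2 kb), against 9.25 kb (0 to 35.3 kb) for all protein-coding genes. The nearest peak was more than 50 kb away in 2 of 41 Zbtb genes (4.88%, interval 1.35 to 16.1%), Zbtb18 and Zbtb20, against 20% of all protein-coding genes. The 8 BTB zinc finger genes that bear other symbols had a median of 1.86 kb, and 0 of 8 lay beyond 50 kb (interval up to 32.4%), so short distances were not particular to the Zbtb symbols. No test was made.

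**Figure D4:**
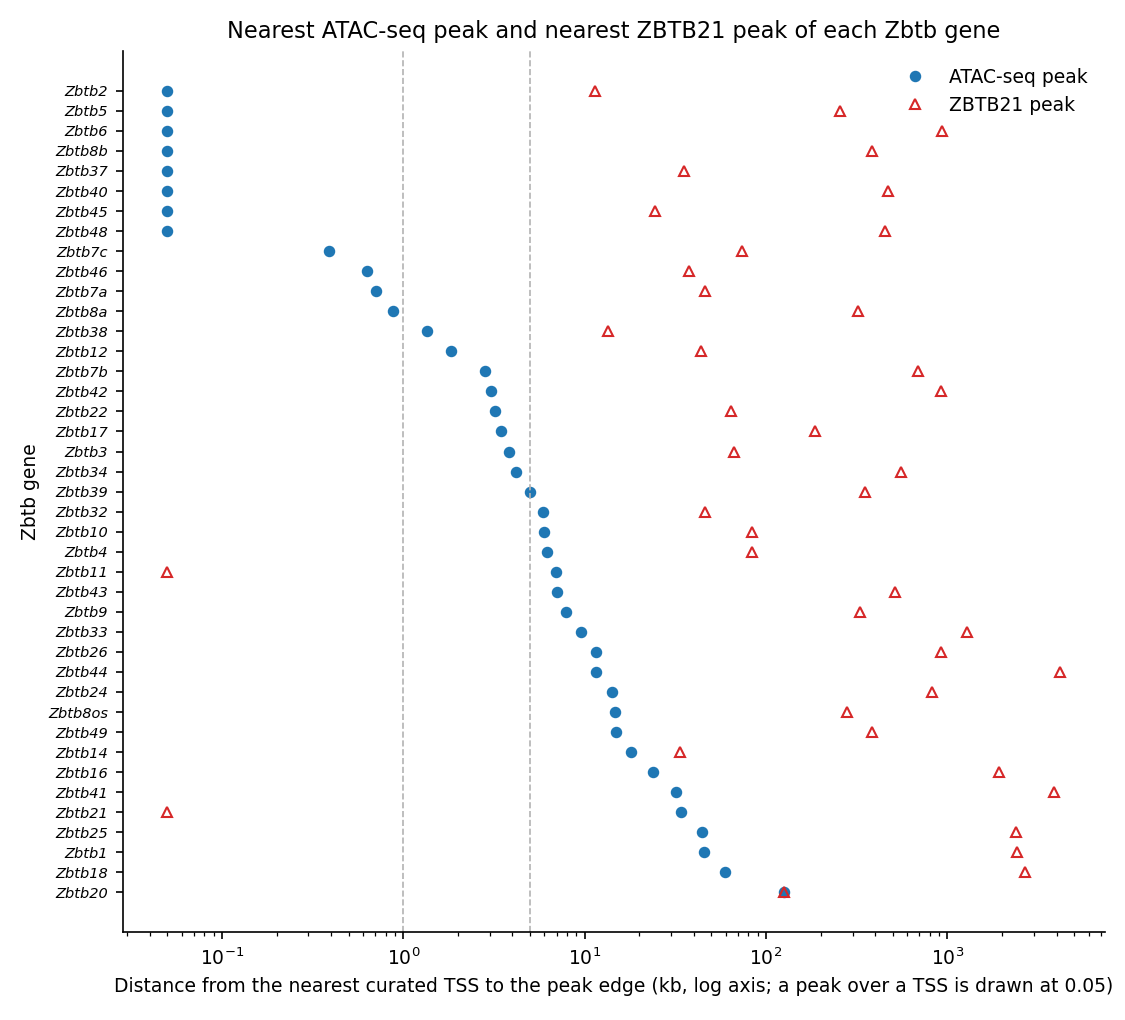
Distance (kb, log axis) from the nearest curated TSS of each of the 41 Zbtb genes to its nearest ATAC-seq peak (circles) and nearest ZBTB21 peak (triangles). A peak over a TSS is drawn at 0.05 kb and dashed lines mark 1 and 5 kb. For Zbtb11 and Zbtb21 the triangle is at the TSS and the circle at 6.99 and 33.9 kb. In the other 39 genes the ZBTB21 peak was over 10 kb away.

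By known role, peaks within 1 kb were scattered over the family, and the counts of each group are to be read against the 28.5% of all protein-coding genes. Of the 4 members whose proteins the study ties to cohesin, Zbtb7a had one and Zbtb7b, Zbtb11 and Zbtb21 did not. The study also ties ZBTB35 to cohesin and detected ZBTB19 and ZBTB30 with it. These are the products of Zfp131, Patz1 and Hic2, which the symbol rule leaves out, and none of them had a peak within 1 kb. Of the 3 readers of methylated DNA, Zbtb4, Zbtb33 (Kaiso) and Zbtb38, none had one. Of 9 members known from lymphoid and myeloid cells, only Zbtb46 had one. Zbtb16, which encodes PLZF of innate-like T cells, had its nearest peak 23.9 kb away. Of 4 members tied to telomeres or genome maintenance, Zbtb40 and Zbtb48 had one and Zbtb10 and Zbtb24, a gene mutated in ICF syndrome, did not. Of 4 members known from neural cells, only Zbtb45 had one. Zbtb18, which encodes a transcriptional repressor, was the second farthest of all members from a peak. The remaining 21 members included 7 with a peak. These groups are small, and the interval for 1 of 9 runs from 1.99 to 43.5%, which holds the share of all genes.

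The share of Zbtb genes with a listed ZBTB21 peak near a TSS was close to that of all genes, which its interval holds. The study made its ZBTB21 ChIP-seq with a GFP antibody in mESCs that carry a degron-GFP tag on endogenous ZBTB21. The ATAC-seq list is of cells labelled V6.5, so overlaps between these peaks compare different cells. A ZBTB21 ChIP-seq peak, from the 1827 mESC peak coordinates listed with the study, lay within 1 kb of a TSS in 2 of 41 Zbtb genes (4.88%, interval 1.35 to 16.1%), against 6.13% of all protein-coding genes. The 2 genes were Zbtb11 and Zbtb21, and in each the ZBTB21 peak covered the TSS. Within 5 kb they remained the only ones, against 7.04% of all genes. Neither had an ATAC-seq peak within 5 kb. Such promoters were common among the ZBTB21-bound genes, since 636 of the 1288 genes with a ZBTB21 peak within 1 kb had no listed ATAC-seq peak within 1 kb. The nearest ATAC-seq peak of Zbtb21 (chr16:97996499-97997552) had a score of 852 and lay between genes, and that of Zbtb11 (chr16:55966072-55966815) had a score of 727 and lay in an intron of the neighbouring gene Rpl24.

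None of the 32 ATAC-seq peaks within 5 kb of a Zbtb TSS overlapped a ZBTB21 peak, against 814 of 41014 peaks (1.98%) in the list. Inside the genes and beyond 5 kb of a TSS, 2 of 39 peaks did. These were intronic peaks of Zbtb2 (score 823, 11801 bp from the TSS) and Zbtb38 (score 830, 13364 bp from the TSS). The peak nearest to Zbtb20, 125 kb upstream with a score of 826, also overlapped one.

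Among the 8 BTB zinc finger genes that bear other symbols, 4 had a ZBTB21 peak within 1 kb (50%, interval 21.5 to 78.5%). These were Bcl6, the repressor of germinal centre B cells, Bcl6b, Hic1 and Mynn. This interval lies above that of the Zbtb genes, but the 8 genes were a short list and no test was made. Of the 4, Bcl6 (score 653), Hic1 (768) and Mynn (699) also had an ATAC-seq peak within 1 kb, unlike Zbtb11 and Zbtb21.

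ZBTB21-responsive loops are the 500 loops that the study ranked highest by ZBTB21 signal and cohesin change at ATAC-seq peaks within the loop. The loops came from Hi-C of ZBTB21-degron mESCs, and not of the cells labelled V6.5. Only loops above a length limit were classed, and by definition each responsive loop holds a ZBTB21 peak. Because ATAC-seq peaks entered the ranking, the peak shares of genes in these loops are not independent of how the loops were chosen. A Zbtb TSS lay inside such a loop, from outer anchor edge to outer anchor edge, in 8 of 41 genes (19.5%, interval 10.2 to 34.0%), against 15.6% of all protein-coding genes. The 8 genes were Zbtb4, Zbtb6, Zbtb9, Zbtb10, Zbtb12, Zbtb20, Zbtb26 and Zbtb39. Zbtb10 lay in 3 loops, and Zbtb20 and Zbtb39 in 2 each. Only Zbtb6 of the 8 had an ATAC-seq peak within 1 kb (12.5%, interval 2.24 to 47.1%) and Zbtb12 joined it within 5 kb (25%, interval 7.15 to 59.1%). Of all genes with a TSS in such a loop, 30.8% had a peak within 1 kb and 44.7% within 5 kb, and both intervals hold these shares. The nearest ZBTB21 peak inside these loops was between 43.9 kb (Zbtb12) and 1310 kb (Zbtb26) from the TSS. Zbtb6 and Zbtb26, neighbours with TSSs 12.3 kb apart, shared 1 loop of 1825 kb (chr2:35625001-37450000) and were the only members with a TSS in an anchor. Neither Zbtb11 nor Zbtb21 lay in a responsive loop.

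No Zbtb TSS lay in any of the 500 less ZBTB21-responsive loops, which hold no ZBTB21 peak by definition. A count of 0 of 41 allows a share of up to 7.32% by the limit of 3 counts and up to 8.57% by the Wilson interval, and the share of all protein-coding genes was 5.74%, so a difference was not detectable with this number of genes.

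An ATAC-seq peak lay somewhere in the gene in 24 of 41 Zbtb genes (58.5%, interval 43.4 to 72.2%), against 51.1% of all genes. Beyond 1 kb of a TSS, the family had 45 peaks inside 18 genes. The midpoint lay in an exon in 9 of these 45 (20%, interval 10.9 to 33.8%), against 8.80% of 17937 such peaks in all protein-coding genes. Exons make up 8.83% of the length of the Zbtb genes and 6.38% of the length of all protein-coding genes, and their part in the difference was not tested.

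The 9 exonic peaks belonged to 9 genes and lay late in them, between 67.1 and 97.9% of the gene length from the 5′ end. Those in coding exons were in Zbtb5 (score 760, 825 bp), Zbtb24 (706, 373 bp), Zbtb20 (693, 429 bp) and Zbtb12 (560, 332 bp). Those in the 3′ UTR were in Zbtb40 (741, 651 bp), Zbtb4 (724, 483 bp), Zbtb39 (692, 454 bp), Zbtb16 (618, 404 bp) and Zbtb43 (614, 216 bp). None overlapped a ZBTB21 peak. None had the TSS of another protein-coding gene within 1 kb, and the closest was that of Ehmt2, 1.74 kb from the peak of Zbtb12. For Zbtb24, Zbtb39 and Zbtb4 this was the only peak inside the gene, and none of the 3 had a peak within 5 kb of its TSS.

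Along the genome, the 41 genes lay on 15 chromosomes. Chromosome 4 had 7 members, of which Zbtb5, Zbtb8a, Zbtb8b, Zbtb40 and Zbtb48 had a peak within 1 kb, while the 4 members on chromosome 17 and the 3 on each of chromosomes 9, 12 and 16 had none. These counts are small, and the share of all genes on each chromosome was not computed, so no chromosome pattern is drawn from them. Zbtb8a and Zbtb8b also start only 62.8 kb apart. Zbtb1 and Zbtb25 start 960 bp apart on opposite strands and shared the same nearest peak, in an intron of Akap5. Of 5 Zbtb genes with the TSS of another coding gene on the opposite strand within 1 kb, none had a peak within 1 kb, against 901 of 2061 such genes (43.7%). The interval for 0 of 5 reaches 43.4%, and the 5 include this pair with its shared region.

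Promoter sequence was compared over RefSeq windows of the 250 bases before the TSS. The window table matched 36 of the 41 genes with 48 windows, and 20315 windows of 16839 protein-coding genes in all. Zbtb7c, Zbtb10, Zbtb16, Zbtb40 and Zbtb48 had no window. The windows were rich in G and C, with a median of 64.6% in the family (37.6 to 84.0%), against 56.0% in all windows. The ratio of observed to expected CpG, which is low where methylation has eroded CpG over evolution, had a median of 0.79, against 0.55. With CpG-rich defined as over 50% GC and a ratio over 0.6, 32 of 48 Zbtb windows were CpG-rich (66.7%), against 42.5%.

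CpG-rich members had a lower share of listed peaks than all CpG-rich genes. A peak lay within 1 kb in 5 of 27 Zbtb genes with a CpG-rich window (18.5%, interval 8.18 to 36.7%), against 37.5% of 7669 genes. The 5 were Zbtb2, Zbtb6, Zbtb7a, Zbtb37 and Zbtb45. Among genes without a CpG-rich window the counts were 4 of 9 Zbtb genes (44.4%, interval 18.9 to 73.3%), against 21.5% of 9170 genes. The 4 were Zbtb5, Zbtb8a, Zbtb8b and Zbtb46, the last through a TSS that has no window. With each window matched to its own TSS, the shares were 5 of 32 CpG-rich Zbtb windows (15.6%, interval 6.86 to 31.8%), against 34.8% of all CpG-rich windows, and 3 of 16 others (18.8%, interval 6.59 to 43%), against 21.2%. The higher share among members without a CpG-rich window was not seen by window. Several of the 16 other windows came from Zbtb18, which is among the CpG-rich genes. Windows of the same gene are not independent, so the count by window does not decide the matter. Zbtb5 missed the definition narrowly, with 52.4% GC and a ratio of 0.59. The 36 genes held 9 of the 12 with a peak, and no test was made of this difference. The windows of Zbtb21 (70.0% GC, ratio 1.03) and Zbtb11 (66.0% GC, ratio 0.92) were CpG-rich. The windows with the most CpG sites, 47 in Zbtb18, 44 in Zbtb25, 43 in Zbtb14 and 38 in Zbtb41, belonged to genes whose nearest peak was 17.9 kb away or farther. This cut follows no rule, and other CpG-rich windows belonged to genes closer to a peak. Examples were Zbtb34 (32 sites, 4.16 kb), Zbtb2 (28 sites, a peak over a TSS) and Zbtb7a (26 sites, 0.71 kb).

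**Figure D5:**
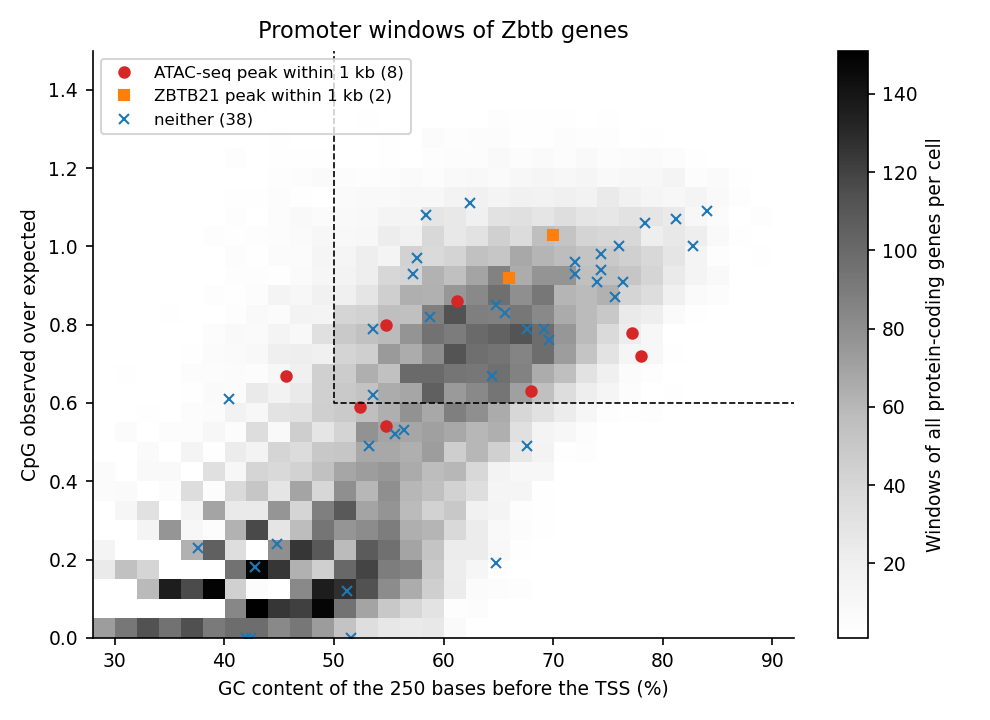
GC content (%) and ratio of observed to expected CpG in the 250 bases before each TSS, for 48 windows of 36 Zbtb genes over the density of 20315 windows of all protein-coding genes in grey. The dashed corner encloses CpG-rich windows. Of the 32 Zbtb windows in the corner, 5 have an ATAC-seq peak within 1 kb (red circles), and the windows of Zbtb11 and Zbtb21 (orange squares) lie among those without one.

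Motifs were counted by their letters on both strands. A GC box (GGGCGG) was in 29 of 48 Zbtb windows (60.4%), against 44.0% of all windows, and a CCAAT box (CCAAT) in 13 (27.1%), against 35.5%. Among Zbtb windows, the share with a GC box was 62.5% of the 8 with a peak within 1 kb and 60% of the 40 without. Over all windows it was 54.7% and 40%. The NRF1 motif was in 3 windows, 2 overlapping windows of Zbtb17 and 1 of Zbtb41, or 6.25% against 1.11%. The cAMP response element (TGACGTCA) was in the Zbtb11 window alone, 2.08% against 1.97%. The AP-1 motif (TGANTCA) was in 1 window, that of Zbtb46, against 6.24% of all windows. The motif of Kaiso, the product of Zbtb33, is TCCTGCNA, and it was in 1 window of Zbtb37 and 3 overlapping or nearby windows of Zbtb18 (8.33% against 4%). The YY1 motif was in 0.891% of all windows and the palindromic CGCG element found at Kaiso sites in 0.571%, and neither was in a Zbtb window.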

How the data were processed

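ATAC-seq peaks of untreated V6.5 mESCs, 2 replicates combined in 1 list, were taken as the authors deposited them. Per the file, each peak has mm10 coordinates and a score, which the authors deposited as 1 whole number per peak (540 to 953) with no value per replicate. The methods name no steps for ATAC-seq peaks, so whether cut sites were shifted for Tn5 is not given in the sources used here. The submitters' processing notes name cutadapt 2.6, Bowtie2 2.3.5.1, MACS2 2.1.1 and deepTools. The score was used only to rank and filter peaks within the list. Absence from the list depends on the authors' threshold and on depth, which is unknown.

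TSSs were those of curated (NM) transcripts in RefSeq annotation release 108.20200622 of GRCm38.p6, the assembly that mm10 names. A peak was near a TSS if 1 bp or more of it lay in the 1 kb or 5 kb on either side. ZBTB21 peaks and loops were coordinates listed with the study, from ZBTB21-degron mESCs, and only their overlap with TSSs and peaks was used. Promoter sequences were RefSeq windows. Motif matches were exact. No statistical test was made, because there is no value per replicate and the members are a list. Intervals are Wilson 95%.

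The members and lists were chosen with earlier results of these data known. Every member may be named, with full values for those tied to cohesin by the study, the 5 with the highest-scored peak within 1 kb, those with a ZBTB21 peak within 5 kb and those in a loop. The role groups and comparison families were listed by symbol. Alternatives were other peaks, transcripts, distances and loop parts. A planned description of the ZBTB proteins was not made, and the degron samples were not analysed here. Counting was tested on simulated data. Python 3.11.15, numpy 2.4.6 and scipy 1.17.1 were used.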

Additional observations from a re-analysis of the deposited data

How the results depend on the processing

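Of 26 alternatives over 6 results, 25 were classed as leaving the family's count or median close to the reported one, and 1 was not. This tally does not compare the family with all genes, and no intervals were computed for the alternatives. With loop anchors only in place of the whole span, 2 Zbtb genes (4.88%) lay in a ZBTB21-responsive loop in place of 8, since anchors cover less of the genome. The share of all protein-coding genes was then 1.83%. The 2 genes were the neighbours Zbtb6 and Zbtb26 in 1 shared loop, so the 4.88% rests on that loop alone. For a peak within 1 kb the counts ran from 9 to 14 of the 12 reported. Peaks above the median score alone lost Zbtb6, Zbtb40 and Zbtb45, and the peak midpoint rule lost Zbtb7a, Zbtb8a and Zbtb46. Model transcripts added Zbtb32 and Zbtb38, and a limit of 2.5 kb added Zbtb12 and Zbtb38. For 5 kb the counts ran from 16 to 22, and model transcripts gave Zbtb11 a peak within 5 kb. Peaks above the median score gave the 16 (39%), against 25.5% of all protein-coding genes, a wider gap than the reported 48.8% against 39.2%. They gave 9 within 1 kb (22%), against 18.6%. The peak midpoint rule also gave 9 within 1 kb (22%), but against 27.3%, so the family was then below all genes. The median best score ran from 737 to 826. The 737 came by the peak midpoint rule, against 757 for all protein-coding genes. The 826 came from peaks above the median score, against 815. With model transcripts it was 743, against 751, so the side of the difference changed with the setting. No paired analysis was possible because the list holds no value per replicate, and for the same reason no replicate could be left out. Depth is unknown, so a gene without a listed peak cannot be told from a gene with a weak one.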
